A study of Mus musculus with 6 samples.

Results

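The transcripts described here are those of 10 genes that belong to the TIF1 cofactor family or to retinoic acid signalling: the cofactors Trim24, Trim28 and Trim33, the retinoic acid receptors Rara, Rarb and Rarg, the retinoid X receptors Rxra and Rxrb, the carrier Crabp2 and the clearance enzyme Cyp26b1. They are 10 of the 34745 genes in the expression table, were matched by gene name, and were selected on their measured levels in the same comparison of D-gal with control that is described below. Their differences between the groups are therefore given as a description, without a test. The samples were 6 RNA-seq libraries of NOR-10, a mouse skeletal muscle fibroblast cell line, with 3 control libraries from cells given PBS and 3 libraries from cells given D-gal (D-galactose, a sugar used to induce cellular senescence) at 20 mg/mL for 3 days, as the methods for these cells give the dose and time. A single cell line was used in both groups, and the labels do not say whether the 3 libraries of a group came from separate cultures, so p-values measure only the spread between these libraries.

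Retinoic acid is made inside cells from vitamin A: retinol is oxidised to retinal by retinol dehydrogenases, retinal to retinoic acid by aldehyde dehydrogenases of the Aldh1a group, and enzymes of the Cyp26 group degrade the product. Retinoic acid binds a retinoic acid receptor (RAR) that is paired with a retinoid X receptor (RXR) on DNA, which exchanges corepressors for coactivators at the target gene, and Rarb and the Cyp26 genes are classic targets of this switch. The TIF1 proteins are chromatin cofactors: TRIM24 binds ligand-bound nuclear receptors and is known to restrain RAR alpha activity in mouse liver, TRIM28 silences chromatin for KRAB zinc finger proteins, and TRIM33 acts with SMAD proteins in TGF-beta signalling.

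Among the 10 genes, 3 stood higher in D-gal by a factor of at least 2 (a log2 fold change of at least 1): Rarb, Trim24 and Cyp26b1. Both RXR genes, Rara and Rarg were lower in D-gal by smaller amounts, Trim28 and Trim33 lay close to their control levels, and Crabp2 was too low to place. All 10 passed the filter on low counts that left 13407 genes tested, and all values below are counts normalized for library size unless another scale is named. In the fit across those genes, 6 of the 10 had an adjusted p under 0.05, where the share over all genes tested was 34.8%. The number was 5 with DESeq2 and without D-gal replicates 1 or 2 or control replicates 1 or 3. The direction was higher in 3 (16.9% of all genes) and lower in 3 (17.8% of all genes). With a log2 fold change of at least 1 as well, 3 were higher (2.37% of all genes) and 0 were lower (1.83% of all genes), and 2 were higher by limma on log2(FPKM + 1) and without control replicate 3. The control and D-gal libraries did not overlap for 8 of the 10, against 49.1% of all genes tested. Since the genes were selected on this comparison, nothing is read from these counts.

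**Figure D1:**
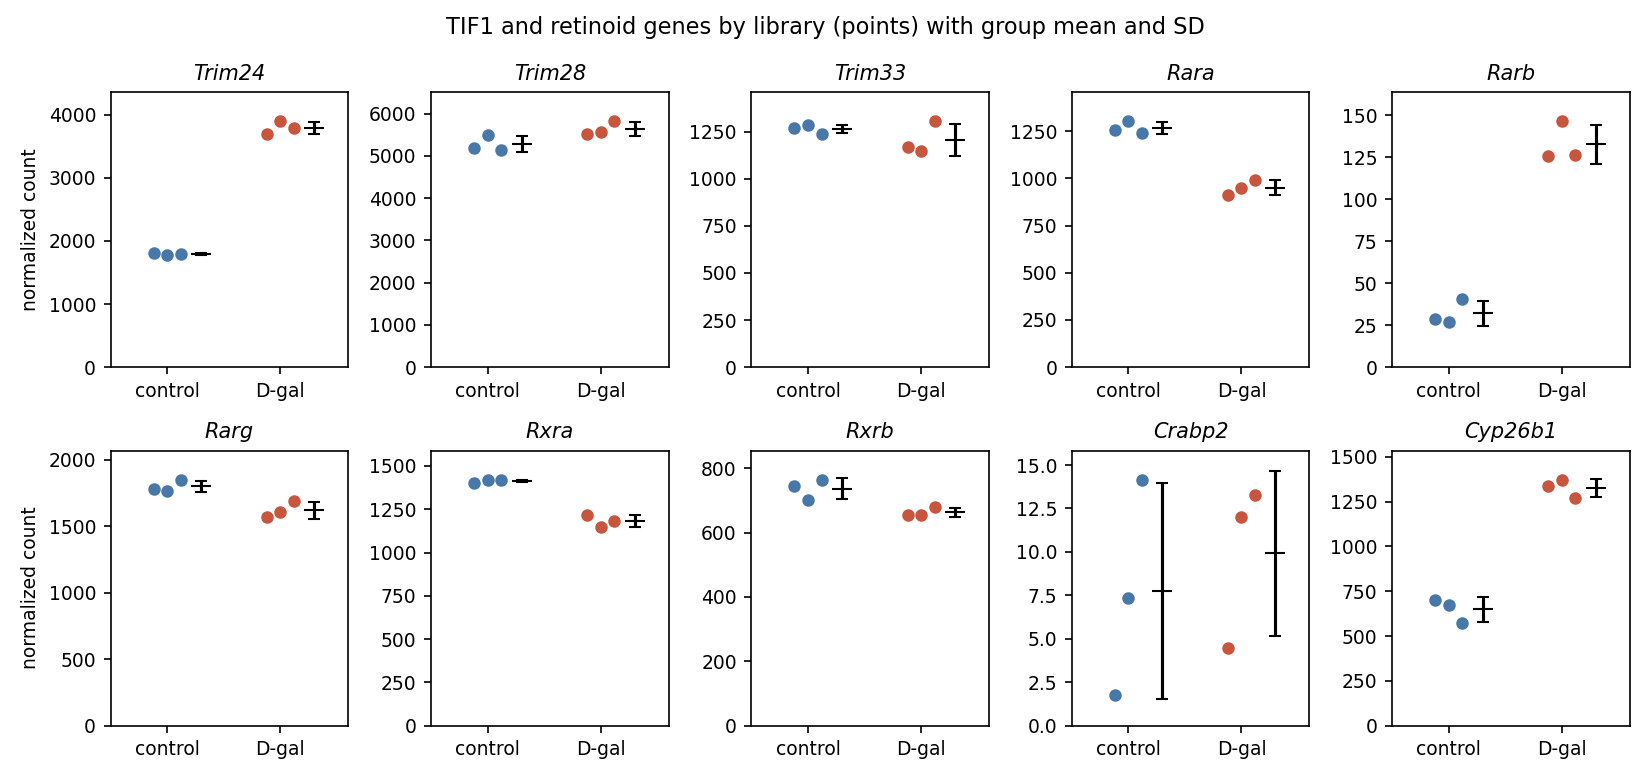
Normalized read count (vertical axes, linear, each from 0) of the 10 genes in the 3 control and 3 D-gal libraries. Points are libraries, and the bar beside them is the group mean with its SD (n = 3). Trim24, Rarb and Cyp26b1 lie well above control in every D-gal library, Rara and Rxra lie below it, and the Crabp2 points, of at most 14.1, overlap.

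The libraries held 13759108 to 20830349 counts, and each D-gal library was shallower than each control library. The median log2 fold change over all genes tested was 0.00363, with the 10th percentile at -0.436 and the 90th at 0.482. Of 9 fibroblast marker genes, 7 had at least 100 counts in every library, and Lum, a matrix proteoglycan, averaged under 5. Summed over the list, fibroblast markers had a CPM (counts scaled to a common library total) of 7075 to 7241 in control and 4755 to 4876 in D-gal. Lists for myogenic, endothelial, immune and epithelial cells each summed to a CPM of at most 9.4 in any library, with Pax7, Myf5, Myod1, Cd3e and Epcam at 0. The epithelial sum was 6.91 to 8.36 in control and 1.78 to 2.63 in D-gal, the myogenic sum 5.19 to 5.98 and 3.57 to 4, and the endothelial sum 4.46 to 5.34 and 3.13 to 3.43, while the immune sum overlapped (3.02 to 9.4 and 3.43 to 4.07). The sums do not show which genes of a list made the difference, and the part of these marker differences in the values below was not tested. Both groups were of the same cell line, and bulk RNA cannot tell fewer cells expressing a marker from less of its RNA per cell.

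Trim24 (ENSMUSG00000029833, chr6:37870811-37966296, plus strand, GRCm38) encodes the TIF1 cofactor that binds ligand-bound nuclear receptors. Its normalized counts were 1804, 1777 and 1787 in control and 3696, 3893 and 3788 in D-gal. Every D-gal library was thus above every control library, and the spread within the groups was small (coefficient of variation 0.751% in control and 2.6% in D-gal). The mean went from 1789 ± 13.4 (SD, n = 3) to 3792 ± 98.6, which is 2.12-fold or a log2 difference of 1.08 with a standard error of 0.03. Over 13 alternative settings of the analysis it stayed between 1.05 and 1.10.

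The 250 bases upstream of the annotated Trim24 start are shown because this gene leads the TIF1 group, with a second stretch upstream of an internal RefSeq start, where half-sites for retinoid and related nuclear receptors were found. A half-site was AGGTCA or its variant AGTTCA, and likewise GGGTCA or its variant GGTTCA, on either strand, and the capitals mark half-sites (TGACCT is AGGTCA read on the other strand). The first stretch, chr6:37870561-37870810 on the plus strand, holds 0 half-sites. The second, chr6:37900237-37900486 on the plus strand, lies within the Trim24 gene and holds 3. These 3 lie in successive, nearly identical stretches of sequence, so they are not separate finds. Sequences are from RefSeq on GRCm38.p6. Half-sites were found in 43.7% of 32851 promoter windows of 300 bases (250 before and 50 after a start), so that a match describes the letters and no more.
Trim24 first start: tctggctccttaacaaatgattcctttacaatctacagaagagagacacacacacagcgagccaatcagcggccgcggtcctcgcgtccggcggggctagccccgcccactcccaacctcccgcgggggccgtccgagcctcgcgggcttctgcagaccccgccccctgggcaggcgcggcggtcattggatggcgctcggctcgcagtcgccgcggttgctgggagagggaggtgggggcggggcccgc
Trim24 internal start: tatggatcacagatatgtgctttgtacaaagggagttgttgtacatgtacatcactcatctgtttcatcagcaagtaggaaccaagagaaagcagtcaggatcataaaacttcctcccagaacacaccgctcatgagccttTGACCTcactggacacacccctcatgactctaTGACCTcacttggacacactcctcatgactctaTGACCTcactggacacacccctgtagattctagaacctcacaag

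Trim28 (ENSMUSG00000005566, chr7:13024152-13031035, plus strand), the corepressor of KRAB zinc finger proteins, was the most abundant gene of the family. It gave 5177, 5499 and 5151 normalized counts in control and 5510, 5575 and 5816 in D-gal, so that the groups were separated only by the gap from 5499 to 5510. The log2 fold change was 0.09 (standard error 0.04, 1.07-fold). Trim33 (ENSMUSG00000033014, chr3:103279293-103358775, plus strand), the SMAD-associated member, gave 1269, 1285 and 1240 in control and 1168, 1148 and 1304 in D-gal. Its groups overlapped, since D-gal replicate 3 was the highest of all 6 libraries, and the log2 fold change was -0.07 (standard error 0.06).

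On the scale of counts per kilobase of exon, which allows genes to be compared, Trim24 took 13 ± 0.448% of the summed level of Trim24, Trim28, Trim33 and their testis-enriched relative Trim66 in control and 23.1 ± 0.689% in D-gal (SD, n = 3). Trim28 took 78.8 ± 0.59% and 70.3 ± 0.37%, and Trim33 took 8.01 ± 0.136% and 6.39 ± 0.308%. Trim66 took 0.151 ± 0.0498% and 0.154 ± 0.0391%. The larger part of the family level was thus Trim28 in both groups, and the share that Trim24 gained was mostly lost by Trim28. The Trim24 level was 0.17, 0.158 and 0.169 of the Trim28 level in the control libraries and 0.327, 0.341 and 0.318 of it in the D-gal libraries. Trim24 remained below Trim28 in every library, while its share moved further than the share of Trim33.

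**Figure D2:**
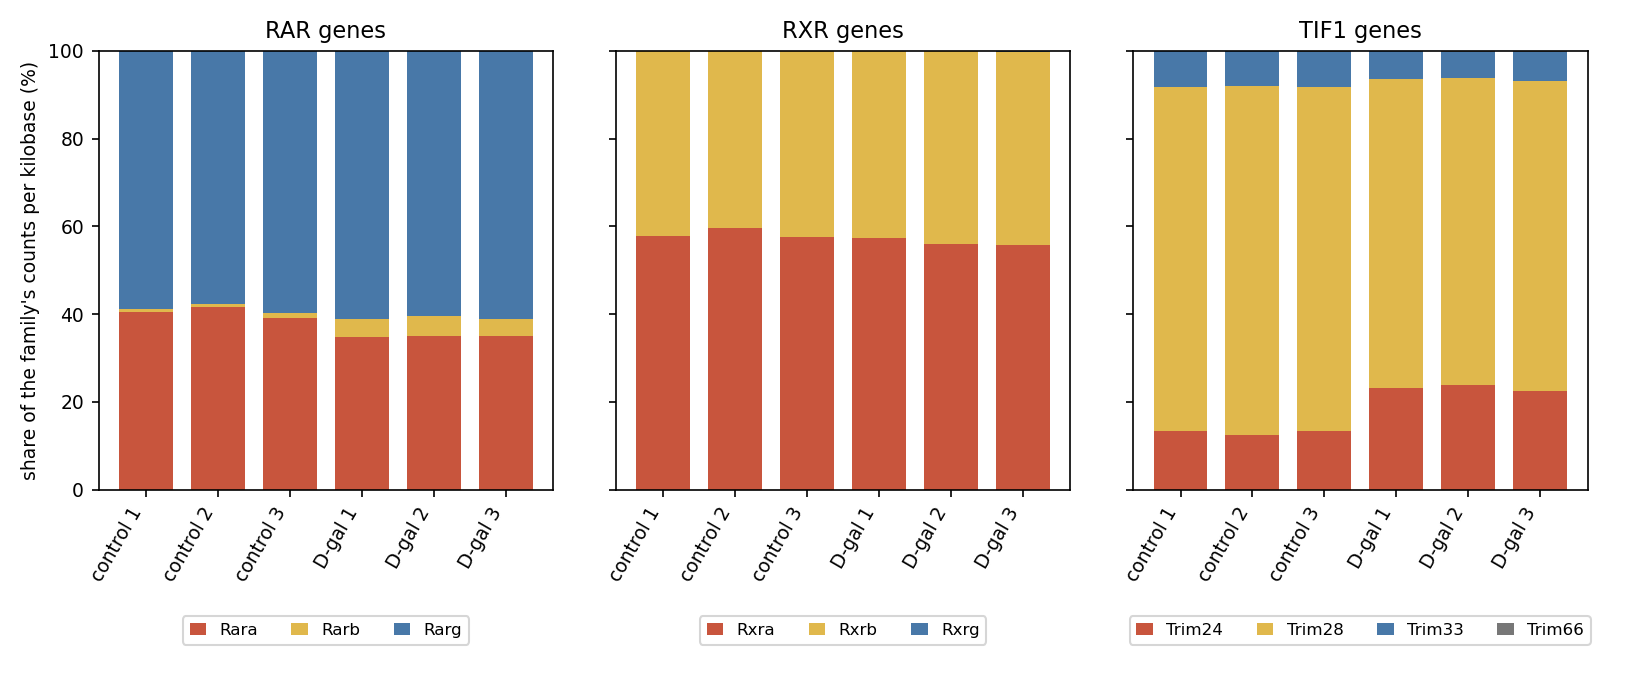
Share (%, vertical axis from 0 to 100) of each gene in its family's summed counts per kilobase of exon, 1 stacked bar per library (3 control, 3 D-gal) for the RAR, RXR and TIF1 genes. In the TIF1 panel the Trim24 share is 12.5 to 13.3% in control and 22.5 to 23.8% in D-gal, and in the RAR panel a Rarb band of 3.71 to 4.46% is seen in D-gal. Rxrg and Trim66 are too low to be seen.

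The 3 tested genes whose centred log2 profile over the 6 libraries lay nearest to that of Trim24 were Filip1l, Rftn2 and Adm, at Euclidean distances of 0.090, 0.094 and 0.120. Filip1l averaged 2151 normalized counts in control and 4687 in D-gal, Rftn2 192.9 and 396.2, and Adm, which encodes the vasodilator peptide adrenomedullin, 868.8 and 1929. The profile was not particular to these genes, as 227 genes lay within a distance of 0.5. The 6 libraries of this measure form only 1 contrast.

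Rarb (ENSMUSG00000017491, chr14:16430842-16575472, minus strand) encodes RAR beta, a receptor whose own gene is a classic retinoic acid target. It was counted 33, 33 and 40 times in the control libraries and 112, 134 and 105 times in the D-gal libraries. After normalization these were 28.76, 26.93 and 40.4 in control against 125.7, 146.3 and 126.5 in D-gal. Every D-gal library was thus far above the highest control library. The means were 32.03 ± 7.31 and 132.8 ± 11.7 (SD, n = 3), which is 4.18-fold, with a range of 3.68 to 4.74-fold at 1 standard error, or a log2 difference of 2.06 with a standard error of 0.18. This was the largest difference of the 10 genes, and without any single library it was between 1.95 and 2.25. On log2(FPKM + 1), which understates changes of low genes, it was 1.17.

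In the GENCODE M21 annotation, 38.4% of the exon bases of Rarb overlap genes on the other strand, Top2b and Gm48162, whereas in the coordinates of the expression table Top2b ends 54 bases before Rarb begins. Whether reads were counted by strand is not given in the sources used here. Top2b, a DNA topoisomerase, had 6387 ± 74.1 normalized counts in control and 6510 ± 195 in D-gal and did not pass the test (log2 fold change 0.03, adjusted p = 0.55, edgeR with Benjamini-Hochberg adjustment). The part of reads from Top2b in the Rarb counts was not tested.

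The Rarb promoter held the element for which this gene is known, a direct repeat of the half-site with a spacer of 5 bases (DR5), the arrangement bound by RAR and RXR pairs. It lies at chr14:16575513-16575529 on the minus strand, from -53 to -37 relative to the RefSeq start, and within exon 1 and the 5′ UTR of the longer transcripts Rarb-201 and Rarb-207. A DR5 was found in 32 of the 32851 windows (0.0974%) and, of the 15 windows that cover 8 of the 10 genes, in the 1 window of Rarb. Repeats with spacers of 1 and 2 bases, in 0.222% and 0.268% of all windows, were found in none of the 15. The clearance gene Cyp26a1 was the other gene of the pathway lists with a DR5, and it is shown beside Rarb because it had 0 counts in every library. Capitals mark the element, and each is read on its own strand, chr14:16575506-16575535 on the minus strand for Rarb and chr19:37697770-37697799 on the minus strand for Cyp26a1.
Rarb: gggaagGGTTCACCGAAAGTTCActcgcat
Cyp26a1: acaaattAGTTCACCCAAAGTTCAtcttta

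The elements have 15 of 17 bases in common and differ by G1A and G9C (the Rarb base, the position from 1 at the 5′ end of the element, and the Cyp26a1 base), the second of which lies in the spacer. A count of 0 allowed a Cyp26a1 CPM of up to 0.144 to 0.218, depending on the library (3 counts, counting error only). The gene with the first element had counts in all 6 libraries and the gene with the second in none.

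Rara (ENSMUSG00000037992, chr11:98927818-98974942, plus strand), which encodes the broadly expressed RAR alpha, gave 1257, 1302 and 1239 normalized counts in control and 911.3, 951 and 990.4 in D-gal. All D-gal libraries were below all control libraries, and the log2 fold change was -0.41 (standard error 0.05, 0.751 of control). Rarg (ENSMUSG00000001288, chr15:102234938-102257517, minus strand), which encodes RAR gamma, gave 1784, 1769 and 1849 in control and 1567, 1607 and 1688 in D-gal. Its groups did not overlap either, but the distance between them was small beside that of Rara, at a log2 fold change of -0.15 (standard error 0.04, 0.9 of control).

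Per kilobase of exon, Rarg and Rara made up nearly all of the RAR level in both groups. Rarb took 0.845 ± 0.186% of the sum in control and 4.05 ± 0.38% in D-gal, and Rara took 40.4 ± 1.2% and 34.9 ± 0.148%. Rarg took 58.8 ± 1.02% and 61 ± 0.39%, a difference that was absent on the deposited FPKM scale (57.8% and 57.7%). With the exon length used here (5265 bases) in place of the 3034 bases implied by the authors' FPKM, the Rarb level is lower, and on the FPKM scale its share was 1.91% in control and 8.79% in D-gal. On either scale Rarb stayed the lowest of the RAR genes in every library, although it had the largest fold change.

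Rxra (ENSMUSG00000015846, chr2:27676440-27762957, plus strand) encodes the RXR that pairs with RARs in most tissues. It gave 1404, 1417 and 1419 normalized counts in control and 1214, 1148 and 1184 in D-gal, a log2 fold change of -0.26 (standard error 0.04, 0.836 of control). Rxrb (ENSMUSG00000039656, chr17:34031812-34038393, plus strand), its relative, gave 745, 701 and 763.5 in control and 655.4, 656.2 and 679.6 in D-gal, a log2 fold change of -0.15 (standard error 0.06, 0.901 of control). Every D-gal library was below every control library for both genes. Their balance per kilobase moved little, with Rxra at 58.3 ± 1.1% of the RXR sum in control and 56.4 ± 0.894% in D-gal. The third RXR gene, Rxrg, which is typical of muscle and brain, had 2 counts in D-gal replicate 3 and none in the other libraries.

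Cyp26b1 (ENSMUSG00000063415, chr6:84571414-84593908, minus strand) encodes a cytochrome P450 that degrades retinoic acid. Its normalized counts were 701.5, 672.4 and 570.6 in control and 1337, 1370 and 1272 in D-gal. The groups were far apart, with control replicate 3 the lowest library. The means were 648.2 ± 68.7 and 1326 ± 49.8 (SD, n = 3), which is 2.04-fold or a log2 difference of 1.03 with a standard error of 0.08. Its place just past the fold criterion was not stable, since it was 0.95 with control replicate 3 left out and 0.92 by limma on log2(FPKM + 1). Of the 10 genes it was the one nearest to the threshold of 1 from inside, and Rara at -0.41 was the nearest in size from outside.

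Crabp2 (ENSMUSG00000004885, chr3:87948666-87953376, plus strand) encodes the carrier that hands retinoic acid to the RAR. It was counted 2, 9 and 14 times in control and 4, 11 and 11 times in D-gal, and the groups overlapped over nearly their whole range. The log2 fold change of 0.39 had a standard error of 0.67, was -0.09 without control replicate 1 and was 1.08 without control replicate 3, so a difference was not detectable at this depth.

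**Figure D3:**
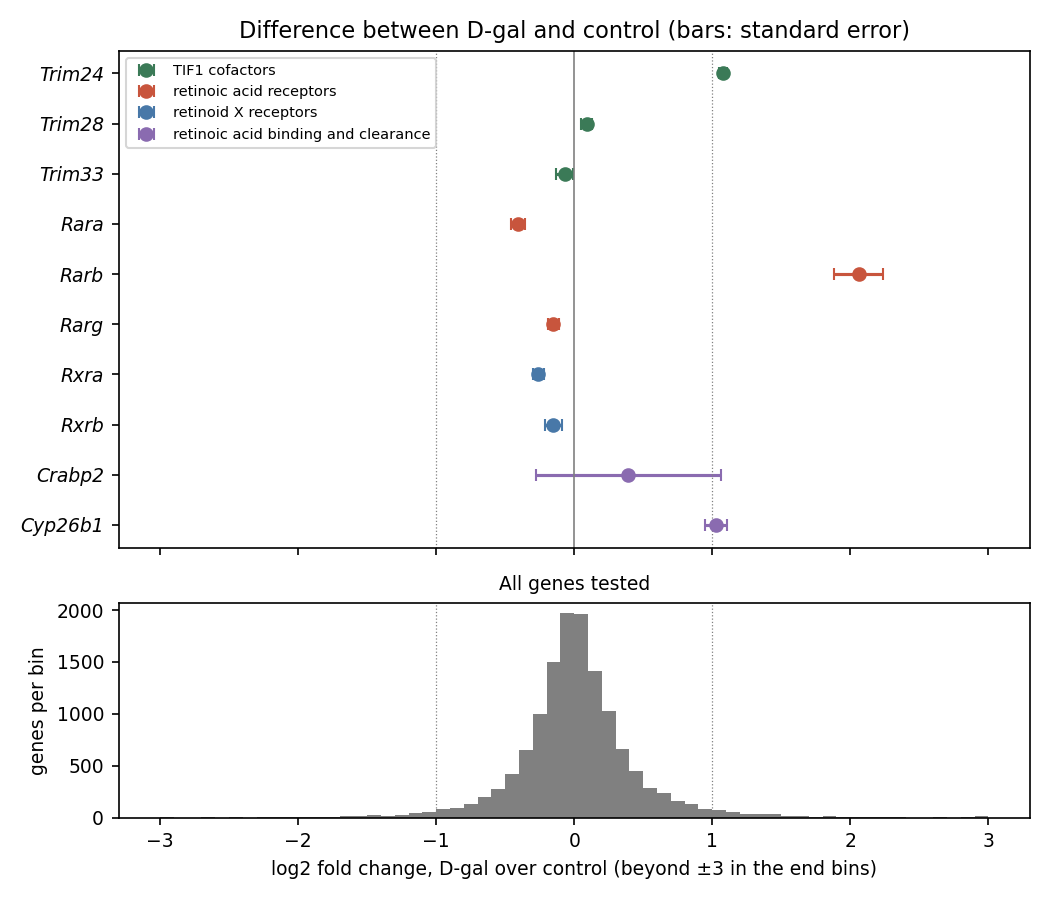
Log2 fold change of D-gal over control (horizontal axis) for the 10 genes, coloured by role, with bars of 1 standard error (upper panel), above the distribution of the same quantity over the 13407 genes tested (lower panel, genes per bin of 0.1). Dotted lines mark -1 and 1. Rarb at 2.06, Trim24 at 1.08 and Cyp26b1 at 1.03 are the 3 genes beyond 1, and Crabp2 has the longest bar.

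Ordered by level per kilobase of exon (CPM divided by the exon length in kilobases, mean ± SD), the control libraries held Trim28 (75.5 ± 2.78), Rarg (25.2 ± 0.596), Rara (17.3 ± 0.443), Rxra (15.4 ± 0.0911), Trim24 (12.5 ± 0.0938) and Rxrb (11 ± 0.482). Trim33 (7.68 ± 0.138) and Cyp26b1 (7.21 ± 0.764) followed and did not differ beyond their spread, and neither did Rarb (0.362 ± 0.0826) and Crabp2 (0.349 ± 0.28) at the bottom. In D-gal the order was Trim28 (80.7 ± 2.31), Trim24 (26.5 ± 0.689), Rarg (22.6 ± 0.864), Cyp26b1 (14.8 ± 0.553), Rara (13 ± 0.54), Rxra (12.9 ± 0.364), Rxrb (9.95 ± 0.206), Trim33 (7.33 ± 0.515), Rarb (1.5 ± 0.132) and Crabp2 (0.447 ± 0.214). Rara and Rxra did not differ beyond their spread there. Trim24 and Cyp26b1 thus stood higher in the order in D-gal than in control, with Trim28 at the top in both. The order among genes of similar level depends on the exon length used.

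The other genes of the pathway were taken from 7 lists with 106 genes outside the 10. Of these, 84 passed the filter on low counts and were tested. The lists were chosen with earlier results of these data known, so the counts below are not those of lists fixed in advance. At an adjusted p under 0.05 (edgeR quasi-likelihood test, Benjamini-Hochberg adjustment over all 13407 genes), 12 rose and 16 fell in D-gal, and 56 did not pass. The share that passed, 33.3%, lay beside 34.8% of all genes, and the median log2 fold change of the 84 was 0.00. No gene of the lists rose past the fold criterion, and 2 fell past it, Dhrs9 and Bhlhe40. The count that rose was 6 without D-gal replicate 2 and 7 without D-gal replicate 3.

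**Figure D4:**
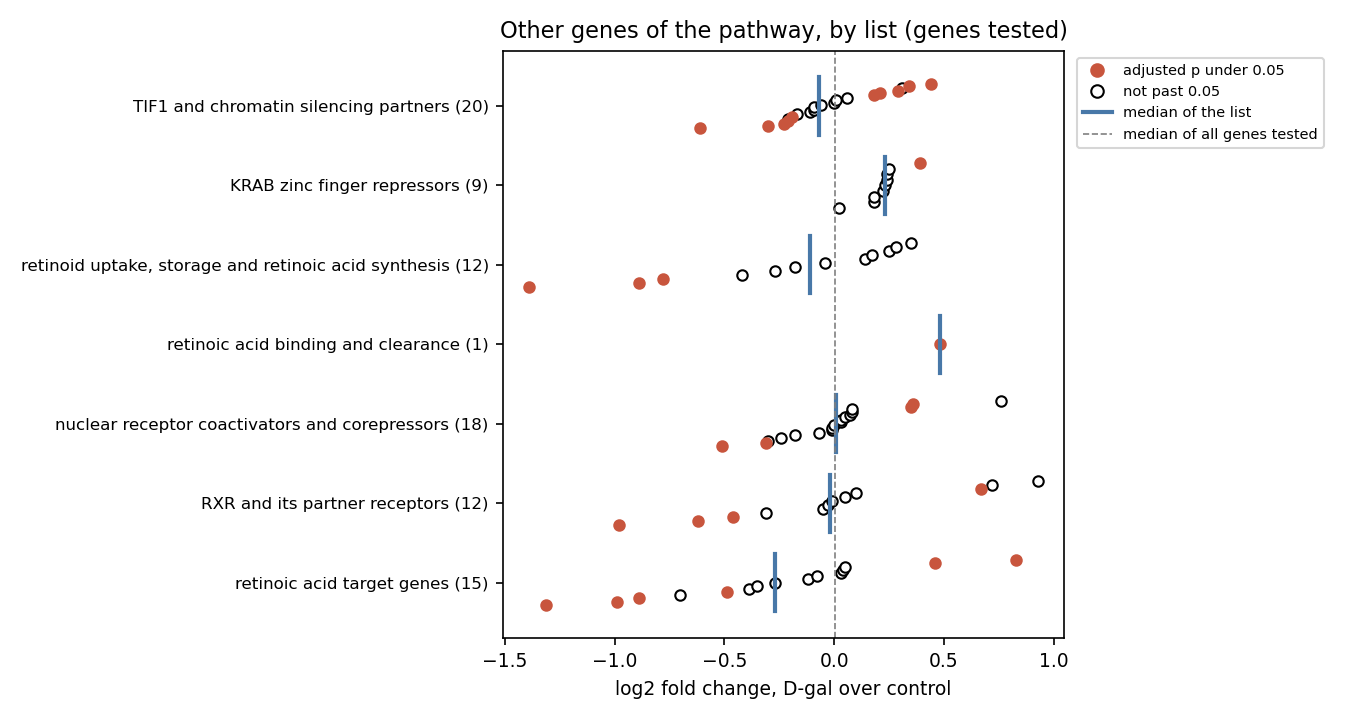
Log2 fold change of D-gal over control (horizontal axis) of the tested genes of each of 7 pathway lists, with the number tested in brackets. Filled points have an adjusted p under 0.05, open points do not, the blue bar is the median of the list, the dashed line is the median of all genes tested, and the height within a list only separates points. Points lie on both sides of 0 in most lists, and Dhrs9 at -1.39 and Bhlhe40 at -1.31 lie furthest to the left.

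Of 20 genes listed as TIF1 or chromatin silencing partners, 5 rose, 5 fell and 10 did not pass, with a median log2 fold change of -0.07. The share past the adjusted p was 50%, beside 34.8% of all genes. Besides silencing genes the list held the TIF1 gene Trim66 and the SMAD genes Smad2, Smad3 and Smad4, none of which passed. Chd3, a remodelling helicase of the NuRD complex, rose from 5915 ± 149 to 8013 ± 62.3 normalized counts (log2 fold change 0.44, standard error 0.03, adjusted p = 3.85e-05). Its relative Chd4 fell (-0.23, standard error 0.03, adjusted p = 0.000425). Uhrf1, which directs maintenance DNA methylation, fell from 2654 ± 48.5 to 1735 ± 94.9 (-0.61, standard error 0.05, adjusted p = 5.61e-05), and 24.2% of its 31-base words occur in other genes. To complete the count, and chosen after their values were seen, Morc2a, Mphosph8, Fam208a and Hdac2 rose by 0.18 to 0.34 on the log2 scale. The methyltransferase gene Dnmt1 and the HP1 genes Cbx5 and Cbx1, chosen likewise, fell by 0.19 to 0.30. Genes on the other strand overlap 7.52% of the exon bases of Morc2a, 10.7% of those of Mphosph8 and 12.9% of those of Fam208a. The third HP1 gene, Cbx3, did not pass (0.00, standard error 0.28, adjusted p = 0.993), but its control libraries were far apart. It had 847.9 normalized counts in control replicate 1, 1909 and 2050 in control replicates 2 and 3, and 1687, 1487 and 1642 in D-gal. Pphln1, which acts with Mphosph8 and Fam208a in the HUSH silencing complex, did not pass either (-0.09, adjusted p = 0.168). Setdb1, the histone methyltransferase that TRIM28 recruits, did not pass, with a log2 fold change of -0.06.

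Of 10 KRAB zinc finger genes, whose proteins bring TRIM28 to DNA, 9 were tested. The share past the adjusted p was 11.1%, beside 34.8% of all genes. Zfp57, which maintains imprints, rose from 640.8 ± 117 to 844.2 ± 66.6 (log2 fold change 0.39, standard error 0.13, adjusted p = 0.0448), and the other 8 did not pass. The median was 0.23. The Zfp57 call was lost without D-gal replicates 1, 2 or 3, without control replicates 1 or 3, with counts thinned to the smallest library and with the replicate number as a block, at log2 fold changes of 0.26 to 0.45.

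Of 22 genes of retinoid uptake, storage and retinoic acid synthesis, 12 were tested and 10 were too low to test. None rose, 3 fell and 9 did not pass, a share past the adjusted p of 25% beside 34.8% of all genes, and the median was -0.11. Dhrs9, a retinol dehydrogenase, fell from 138.7 ± 35.2 to 52.87 ± 15.7 (log2 fold change -1.39, standard error 0.25, adjusted p = 0.00411). The alcohol dehydrogenase Adh1 fell from 105.3 ± 23.3 to 61.07 ± 17.6 (-0.78, standard error 0.24, adjusted p = 0.0405), a call that was lost without D-gal replicates 2 or 3, without control replicates 2 or 3 and with the replicate number as a block (-0.77). The main retinol dehydrogenase of embryonic retinoic acid synthesis, Rdh10, averaged 464.6 and 513.1 and did not pass (adjusted p = 0.173). Aldh1a1, which oxidises retinal, averaged 166.6 and 187 and did not pass either (adjusted p = 0.28). The other retinal dehydrogenases were near the limit of detection, with at most 1 count of Aldh1a2 and 2 counts of Aldh1a3 in a library. The gene of the cell surface receptor for retinol-binding protein, Stra6, was counted 7, 12 and 1 times in control and 7, 7 and 4 times in D-gal.

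Of 5 other genes for the binding and clearance of retinoic acid only Fabp5 was abundant enough to be tested. Fabp5, a fatty acid binding protein that can also carry retinoic acid, rose from 928.6 ± 45 to 1294 ± 49.3 (log2 fold change 0.48, standard error 0.05, adjusted p = 0.000389), and 9.27% of its 31-base words occur in other genes. Cyp26c1 was counted 3 and 6 times in 2 control libraries and not in the others. Within the Cyp26 group, Cyp26b1 was thus the only gene with more than 6 counts in a library.

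Among 18 coactivators and corepressors of nuclear receptors, all tested, 2 rose, 2 fell and 14 did not pass, with a median of 0.01. The share past the adjusted p was 22.2%, beside 34.8% of all genes. The p160 coactivators Ncoa1 and Ncoa3 rose by 0.36 (standard error 0.06, adjusted p = 0.00245) and 0.35 (standard error 0.06, adjusted p = 0.0032) on the log2 scale, and the third p160 gene, Ncoa2, did not pass (-0.07, adjusted p = 0.23). Gps2, a subunit of a corepressor complex with HDAC3, fell from 499.1 ± 17.3 to 401.6 ± 39.1 (-0.31, standard error 0.08, adjusted p = 0.0214), a call that was lost without D-gal replicate 2 or control replicate 2. Med1, the mediator subunit that contacts nuclear receptors and the remaining gene of the count, fell by 0.51 (standard error 0.16, adjusted p = 0.0372). Its D-gal replicate 3 was far below the others, at 874.8 normalized counts against 1459 and 1312 in D-gal replicates 1 and 2. The corepressor Ncor1, which holds unliganded RARs silent, did not pass, at a log2 fold change of 0.08.

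Of 16 genes for RXR and the receptors that share it with RARs, 12 were tested, 1 rose, 3 fell and the median was -0.02. The share past the adjusted p was 33.3%, beside 34.8% of all genes. Vdr, the vitamin D receptor, fell from 1676 ± 63.9 to 852.3 ± 117 (log2 fold change -0.98, standard error 0.09, adjusted p = 0.000141). Nr2f2, an orphan receptor that competes for retinoid elements, fell from 2164 ± 71.1 to 1404 ± 53.7 (-0.62, standard error 0.04, adjusted p = 4.37e-05), and 7.46% of its exon bases overlap a gene on the other strand. Nr4a1, an orphan receptor that can pair with RXR, fell by 0.46 (standard error 0.07, adjusted p = 0.00203). The thyroid hormone receptor gene Thrb was the 1 that rose, by 0.67 (adjusted p = 0.0237).

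Of 20 genes known as retinoic acid targets in other cells 15 were tested, 2 rose, 4 fell and 9 did not pass, and the median log2 fold change was -0.27. The share past the adjusted p was 40%, beside 34.8% of all genes. Bhlhe40, a repressor that is also known as Stra13, fell from 459.6 ± 21.6 to 184.8 ± 28.4 (log2 fold change -1.31, standard error 0.11, adjusted p = 0.000106). Rarres2, which encodes the secreted protein chemerin, fell from 364.9 ± 15.8 to 183.9 ± 43.6 (-0.99, standard error 0.15, adjusted p = 0.00186), and 33.6% of its exon bases overlap Lrrc61 on the other strand. The homeobox gene Hoxb4 rose by 0.46 (adjusted p = 0.0483), and the homeobox gene Meis1 fell by 0.49 (adjusted p = 0.0338). Both were chosen after their values were seen, and 8.51% of the exon bases of Meis1 overlap a gene on the other strand.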

How the data were processed

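RNA-seq of 3 control and 3 D-gal libraries was analysed from the table that the authors deposited, with read counts per gene and FPKM values (scaled by gene length and library size). Reads had been aligned with HISAT2 2.0.4 per the submitters' notes; the counting tool, annotation and strand setting are not given in the sources used here. The genome build was not stated. For most of the 10 genes the positions in the table were those of GENCODE M21 on GRCm38, and those of Trim28, Rarb and Rxrb differed. Groups and replicate numbers were taken from the sample labels. Counts were filtered with filterByExpr, scaled by TMM (factors 0.9855 to 1.015) and fitted with edgeR 4.0.16 (quasi-likelihood test, R 4.3.3) over 13407 genes, with Benjamini-Hochberg adjustment. Thresholds were an adjusted p of 0.05 and, where stated, a log2 fold change of 1. DESeq2 1.42.0 and limma 3.58.1 on log2(FPKM + 1) were alternatives. The fits were tested on simulated data. Union exon lengths, overlaps and words of 31 bases came from GENCODE M21 on GRCm38, promoters from RefSeq.

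The 10 genes and the lists were chosen with earlier results of these data known. Named pathway genes were the 3 with the smallest p among those past the adjusted p in a list and any other past the fold criterion; the 3 genes nearest to Trim24 used log2(normalized count + 0.5). Some genes that this rule names are not reported here.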

Additional observations from a re-analysis of the deposited data

How the results depend on the processing

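For the 10 genes, 124 of 129 log2 fold changes over the alternatives moved by less than the spread between libraries, and the 5 that moved further did so on log2(FPKM + 1): Trim24 1.05, Rara -0.35, Rarb 1.17, Rxra -0.20 and Rxrb -0.10. Crabp2 alone changed sign, to -0.09 without control replicate 1. Of 208 values of the 16 named pathway genes, 194 kept their direction and call, 14 (Zfp57, Adh1 and Gps2) kept the direction and lost the call, and 0 reversed. Of all genes, 564 passed both thresholds, and 120 did so by limma on log2(FPKM + 1), a scale that shrinks the changes of low genes. At an adjusted p of 0.01, 2729 genes passed in place of 4661, 17 pathway genes in place of 28, and 6 that rose in place of 12. Leaving out 1 library gave 6 to 10 pathway genes that rose; the cause was not tested.

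With the deposited FPKM in place of counts per union exon length, the share of Rara in D-gal was 33.5%, that of Rarb was 1.91% in control and 8.79% in D-gal, and that of Rarg in D-gal was 57.7%. Rxra took 62% and 60.2%, Rxrb 38% and 39.7%, Trim24 18.3% and 30.9%, Trim28 73% and 62.4%, and Trim66 0.226% and 0.22% in control and D-gal, and Trim33 took 8.47% in control. These values moved with the gene length the authors used. Only Rarg and Trim66 changed the direction of their difference, both by less than 1 SD on the FPKM scale.

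Libraries with the same number did not deviate together over the genes tested (correlations of -0.0137, -0.00651 and 0.0259). Libraries with different numbers gave -0.035 to 0.0428. Correlations over all genes cannot tell whether same-numbered libraries shared a culture or a batch. With the replicate block, 22 pathway genes passed, 8 higher and 14 lower, with 530 genes past both thresholds, and the log2 fold changes of Trim24 and Rarb were 1.08 and 2.07. Rarb and Crabp2 are limited by depth, with at most 40 and 14 counts in a control library.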

Other observations

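Zfp568, a gene on the list of KRAB zinc finger repressors, had 1 library in each group far above the others. Its normalized counts were 484.5, 194.2 and 158.6 in control replicates 1, 2 and 3 and 575.7, 182.3 and 219.3 in D-gal replicates 1, 2 and 3. Replicate 1 was the highest of both groups, and the log2 fold change of 0.22 had a standard error of 0.52. The gene was chosen after its values were seen.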
